A study of Homo sapiens with 27 samples.

Results

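The EGR family and other immediate early genes were followed as 10 genes, EGR1, EGR2, EGR3, EGR4, NAB2, SRF, IER2, IER3, IER5 and DUSP1, chosen as serum-response immediate early genes by their symbols. Each symbol had 1 row with counts in both count tables, so these are 10 of the 67130 genes listed. RNA sequencing was done on 27 libraries from human cell lines with the ARID1A gene knocked out, in 9 groups of 3. The ARID1A protein is a DNA-binding subunit of BAF, a SWI/SNF complex that moves nucleosomes, and STUB1 is a ubiquitin ligase that works with chaperones. The libraries labelled 293T, a derivative of human embryonic kidney cells that expresses SV40 large T antigen, were knockout cells with lentiviral, stably expressed, Flag-tagged ARID1A carrying the missense change V2084D, G2087E, G2087R or K2025E, knockout cells with wild-type ARID1A (WT), and knockout cells alone (KO). The libraries labelled Huh7, a hepatocellular carcinoma line, were knockout cells with V2084D and knockdown of STUB1 (V2084D shSTUB1), with V2084D, and with WT. Both lines' samples carry the same treatment text, which names Huh7 alone. That set holds no library of knockout cells alone or of WT with the STUB1 knockdown. No label states that replicates came from separate cultures. The p-values therefore set each difference only against the scatter of these libraries, estimated over all groups of a fit. Any clone or pool that made up a group cannot be told apart from that group's genotype.

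Immediate early genes are transcribed within minutes of a growth factor or stress signal from transcription factors already present in the cell. SRF binds CArG boxes in their promoters together with ternary complex factors such as ELK1, which ERK phosphorylates, or with the actin-regulated MRTF cofactors. The EGR proteins are zinc finger transcription factors that bind GC-rich sites, NAB2 is a corepressor that docks on them, and DUSP1 is a phosphatase that switches the MAP kinases off again. In growing cell cultures the genes are read at the level they hold without a timed stimulus, and the labels name no serum or growth factor treatment.

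Total counts per library ran from 33429483 to 55539529 in the 293T table and from 59124374 to 79915177 in the Huh7 table. Each level is given in CPM, the count scaled to library size with TMM over all 27 libraries together. Differences are log2 differences of an edgeR quasi-likelihood fit within each table with their standard error (SE), and calls are genes with an adjusted p (Benjamini-Hochberg, over every gene tested) below 0.05. Over the 9 libraries labelled Huh7 together, none of 15 liver marker genes averaged 1 CPM. Their summed level was 2.36 to 5.54 CPM, against 3.31 to 10.5 CPM in the libraries labelled 293T. By group, the liver marker APOB averaged 2.24 CPM in the WT libraries labelled Huh7, 0.043 CPM in V2084D and 0.17 CPM in V2084D shSTUB1. Of 8 genes typical of HEK293 cells, 7 averaged 10 CPM or more in the libraries labelled Huh7. In the libraries labelled G2087R, replicates 1 and 2 had 294 and 326 CPM of ARID1A and replicate 3 had 68480 CPM, against 119 to 195 CPM in KO. On the first principal component of the libraries labelled 293T, K2025E replicates 2 and 3 were at -106 and -68.2, and the other 16 lay between -41 and 48.7. STUB1 was at 69.4, 83.3 and 65.9 CPM in V2084D shSTUB1, against 247, 247 and 290 CPM in V2084D.

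The 10 genes are all protein-coding and mostly compact. Positions are those of GENCODE 29 on GRCh38. EGR1 (ENSG00000120738) lies at chr5:138465490-138469315 on the plus strand with 2 exons over 3826 bases, and DUSP1 lies on the minus strand of the same chromosome at chr5:172768090-172771195. IER3 (chr6:30743199-30744554, minus strand) and IER5 (chr1:181088712-181092899, plus strand) each form a single exon. SRF occupies chr6:43171299-43181507 on the plus strand, NAB2 chr12:57088894-57095476 on the plus strand and IER2 chr19:13150415-13154908 on the plus strand. EGR3 (chr8:22687659-22693302) and EGR4 (chr2:73290929-73293705) are both on the minus strand. The exception in length is EGR2 (chr10:62811996-62919900, minus strand), which spans 107905 bases, while the other 9 are below the 27107 bases that is the median span of the 19951 protein-coding genes. Annotated genes on the opposite strand overlap EGR3, NAB2, IER2, IER3 and DUSP1. The overlap is 69 bases for NAB2, whose neighbour is STAT6, and the whole gene for DUSP1. Whether the counting used strand is not given in the sources used here, so reads of those partners cannot be told apart from reads of these 5 genes.

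The promoter windows of RefSeq on GRCh38.p14, from 250 bases before to 50 after a transcript's start, cover 8 of the 10 genes in 11 windows. EGR3 and IER3 have none in the table. The windows were searched on both strands for the CArG box, for the EGR site GCGNGGGCG and for the cAMP response element TGACGTCA. The stretches that hold a CArG box or a cAMP response element are shown because they carry the binding sequences for which these genes are known, with the matches in capitals, each read 5′ to 3′ on the gene's own strand:

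EGR1, chr5:138465362-138465417, plus strand: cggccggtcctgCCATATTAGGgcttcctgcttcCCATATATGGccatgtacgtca

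EGR2, chr10:62816416-62816449, minus strand: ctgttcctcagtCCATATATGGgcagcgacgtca

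SRF, chr6:43171208-43171268, plus strand: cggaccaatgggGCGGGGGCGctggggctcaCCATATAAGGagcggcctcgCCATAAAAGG

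DUSP1, chr5:172771301-172771332, minus strand: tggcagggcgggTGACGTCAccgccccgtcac

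EGR1 held 2 CArG boxes, beginning 105 and 83 bases before the start. SRF held 2 in 1 of its 2 windows, within the last 30 bases before that window's start site and behind an EGR site. EGR2 held 1 in 1 of its 3 windows. A CArG box occurs in 1.29% of the 35116 RefSeq windows. The EGR site was found in windows of EGR1, EGR2, NAB2 and SRF and occurs in 9.43% of all windows. The cAMP response element was found in DUSP1 alone among the 8 genes and occurs in 1.85% of all windows. These matches describe the letters of the windows, and no binding was measured here.

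Per kilobase of exon, EGR1 was the most abundant of the 10 genes in KO libraries labelled 293T and in WT libraries labelled Huh7. Its mean was 46.5 CPM per kilobase in the KO libraries, followed by SRF at 25.1 and IER2 at 21.1, and 57.7 CPM per kilobase in the WT libraries labelled Huh7, followed by IER2 at 35.2 and IER3 at 24.4. EGR4 was the lowest in both, at 0.0775 and 0.175 CPM per kilobase. In V2084D libraries labelled Huh7 the order was led by IER3 at 33.6 CPM per kilobase, and EGR1 was the seventh of the 10 at 3.12. The plot of CPM by library and group gives every value.

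**Figure D1:**
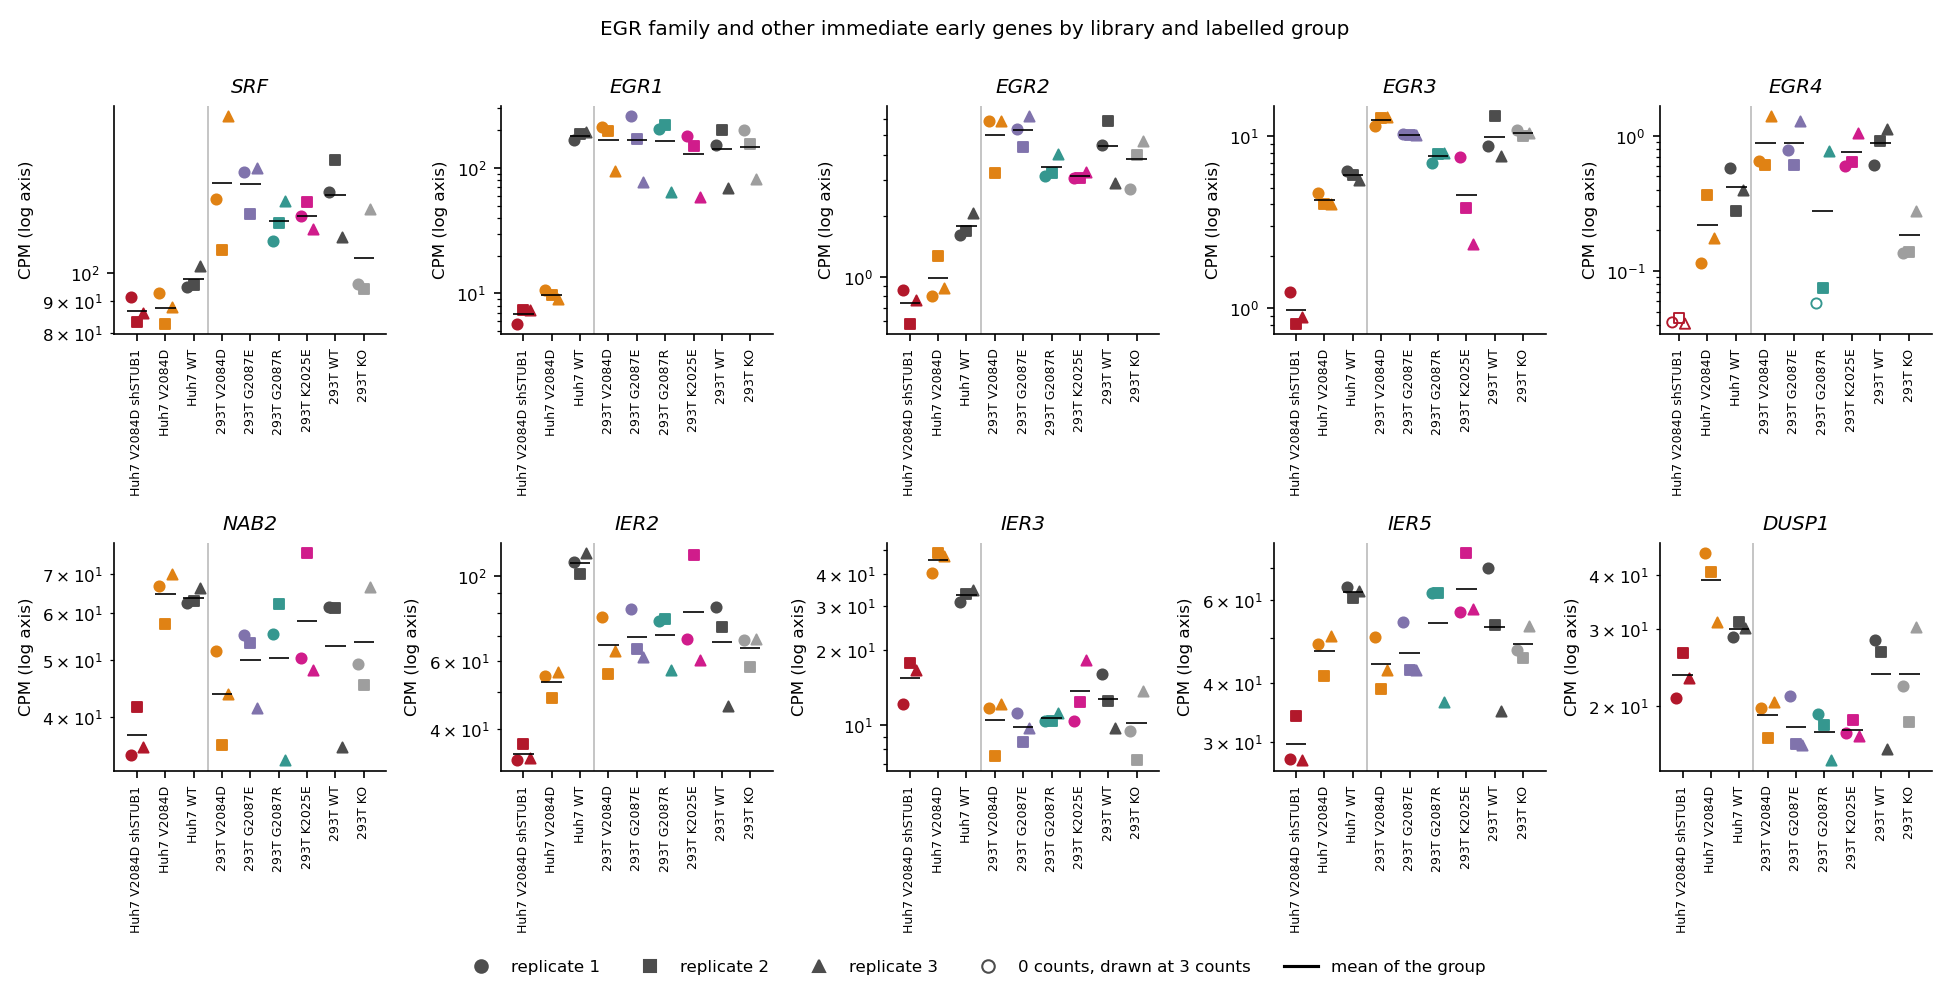
CPM on a log axis (a different range for each gene) of the 10 genes in each library, by labelled group, with the 3 groups labelled Huh7 left of the grey line and the 6 labelled 293T right of it; marker shapes are replicate numbers, black bars are means of 3 libraries, and open markers are libraries with 0 counts drawn at the level of 3 counts. EGR1 is between 8.94 and 10.7 CPM in V2084D libraries labelled Huh7 and between 167 and 192 CPM in the WT libraries, while in the libraries labelled 293T the lowest EGR1 level of each group is a triangle, replicate 3.

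By its labels, the comparison of V2084D with WT in the libraries labelled Huh7 sets the missense change against the wild-type sequence. ARID1A was at 188 to 390 CPM in all 9 libraries labelled Huh7, a level near the 294 and 326 CPM of G2087R replicates 1 and 2 and far below the 5727 CPM or more of the other libraries labelled 293T with introduced ARID1A. Without a library of knockout cells alone labelled Huh7, it is not shown how much of this transcript came from introduced ARID1A. Of the 10 genes, 5 fell (EGR1, IER2, EGR2, EGR3 and IER5), 2 rose (IER3 and DUSP1) and 3 were not called (SRF, NAB2 and EGR4). EGR1 fell most, by 4.23 on the log2 scale. Changes were common in this comparison: 42% of all 22510 genes tested were called, 20% lower and 22% higher, so the share of the 10 genes called has to be read against that. In these bulk samples fewer cells expressing a gene and less RNA per cell cannot be told apart.

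SRF itself, the factor that binds the CArG boxes above, had 92.7, 82.9 and 88.1 CPM in V2084D libraries and 94.7, 95.5 and 103 CPM in WT libraries. The groups did not overlap, but the difference of -0.18 (SE 0.0722) had an adjusted p of 0.0748 and was not called. EGR1, a zinc finger factor induced by growth factors, had 10.7, 9.71 and 8.94 CPM in V2084D libraries and 167, 185 and 192 CPM in WT libraries. The highest V2084D library was thus far below the lowest WT library. The log2 difference was -4.23 (SE 0.122, adjusted p 1.02e-08), the 67th lowest and the 9th by p of the 22510 genes tested. With raw counts of 559 to 796 in V2084D libraries and 9814 to 13609 in WT libraries, counting error is small beside this difference.

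The other EGR genes moved less. EGR2, which drives myelination in Schwann cells, had 0.806, 1.27 and 0.88 CPM in V2084D libraries and 1.60, 1.68 and 2.06 CPM in WT libraries. Its groups did not overlap, and it fell by 0.88 on the log2 scale (SE 0.269, adjusted p 0.0227). EGR3, known from muscle spindle development in mice, had 4.68, 4.03 and 4.05 CPM in V2084D libraries and 6.31, 5.94 and 5.58 CPM in WT libraries, again without overlap. It fell by 0.51 (SE 0.181, adjusted p 0.044). EGR4, the rarest family member, had 8, 30 and 11 counts in V2084D libraries and 34, 18 and 28 counts in WT libraries. These overlapped, and no difference was detected (log2 difference -0.94, SE 0.726, adjusted p 0.346). NAB2, the corepressor of the EGR proteins, averaged 64.8 ± 6.5 CPM in V2084D libraries and 63.8 ± 2.01 CPM in WT libraries (SD, n = 3 each), with a log2 difference of -0.0024 (SE 0.0932) that was not called.

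Among the IER genes the directions were mixed. IER2, a short-lived nuclear protein, had 55.1, 48.1 and 56.1 CPM in V2084D libraries and 108, 101 and 115 CPM in WT libraries. Every V2084D library was below every WT library, and IER2 fell by 1.05 on the log2 scale (SE 0.0841, adjusted p 5.64e-06). IER5, a regulator of the heat shock factor HSF1, fell by 0.44 (SE 0.0994, adjusted p 0.00448), with 48.4, 41.5 and 50.4 CPM in V2084D libraries and 63.9, 60.5 and 62.7 CPM in WT libraries. IER3, which acts in cell survival and stress responses, moved the other way. It had 40.7, 48.7 and 47.4 CPM in V2084D libraries and 30.9, 33.5 and 34.6 CPM in WT libraries, and it rose by 0.44 (SE 0.127, adjusted p 0.0174). DUSP1 had 44.9, 40.6 and 31.1 CPM in V2084D libraries and 28.8, 31.1 and 30.1 CPM in WT libraries. It rose by 0.35 (SE 0.128) with an adjusted p of 0.0498, and its lowest V2084D library was level with the highest WT library to 3 digits.

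EGR1, IER2 and IER5 were called under every alternative setting and with any 1 library left out. The calls of EGR2, EGR3, IER3 and DUSP1 were not: between 4 and 5 of the 10 genes were called when any 1 library was left out, and 4 without the filter on low counts.

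Other genes also separated these groups. The WT libraries lay between -87.1 and -80.3 on the first principal component of the libraries labelled Huh7, which held 35.5% of the variance, and the 6 V2084D libraries, with and without shSTUB1, lay between 31.1 and 53.6. ARID1A averaged 248 ± 32.2 CPM in V2084D libraries and 358 ± 30.6 CPM in WT libraries (SD, n = 3 each), and it fell by 0.55 (SE 0.183, adjusted p 0.0325). IRS4, a signalling adaptor abundant in HEK293 cells and 1 of the 8 marker genes of that line, averaged 18.7 ± 3.24 CPM in V2084D libraries and 442 ± 18.8 CPM in WT libraries (SD, n = 3 each), a log2 difference of -4.58 (SE 0.199, adjusted p 1.44e-07). Of those 8 markers 4 rose and 2 fell. The part of any of these differences in the EGR1 result was not tested.

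The STUB1 knockdown in V2084D cells sets a lowered level of this ubiquitin ligase's transcript against V2084D alone. The titles of the V2084D samples name no control knockdown. Effects of delivering a knockdown therefore cannot be told apart from those of lowered STUB1. Of the 10 genes 8 fell and the other 2, EGR2 and SRF, were not called. Across all genes tested 21.5% were called and 10.8% fell. The genes that fell by more than 1 on the log2 scale were EGR4, EGR3 and IER3.

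SRF had 91.4, 83.3 and 86.1 CPM in V2084D shSTUB1 libraries, which overlapped the 82.9 to 92.7 CPM of V2084D libraries (log2 difference -0.02, SE 0.0722, adjusted p 0.902). EGR1 had 5.74, 7.34 and 7.40 CPM in V2084D shSTUB1 libraries, below all 3 V2084D libraries, whose lowest was 8.94 CPM. It fell by 0.52 on the log2 scale (SE 0.111, adjusted p 0.00774). EGR1 was thus lower again and not back near the 167 CPM of the lowest WT library.

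EGR3 had 1.24, 0.81 and 0.885 CPM in V2084D shSTUB1 libraries and 4.68, 4.03 and 4.05 CPM in V2084D libraries. It fell by 2.12 on the log2 scale (SE 0.193, adjusted p 1.06e-04), a wide gap between groups whose own libraries lay close together. EGR4 had 0 counts in all 3 V2084D shSTUB1 libraries and 8, 30 and 11 counts in V2084D libraries. With each count of 0 set to 3 counts, the mean of the V2084D libraries was 5.15 times that level, the bound used for EGR4. This bound rests on the mean and leaves out the spread of the V2084D libraries, 0.115 to 0.366 CPM. The fall of EGR4 had an adjusted p of 0.00533 by edgeR and no adjusted p from DESeq2. EGR2 had 0.862, 0.585 and 0.762 CPM in V2084D shSTUB1 libraries, overlapping the 0.806 to 1.27 CPM of V2084D libraries (log2 difference -0.42, SE 0.272, adjusted p 0.325). NAB2 had 34.5, 41.6 and 35.6 CPM in V2084D shSTUB1 libraries and 66.8, 57.6 and 70.1 CPM in V2084D libraries. It fell by 0.80 (SE 0.0939, adjusted p 3.82e-04), and no V2084D shSTUB1 library reached the V2084D range.

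IER3 had 12.1, 17.7 and 16.5 CPM in V2084D shSTUB1 libraries and 40.7, 48.7 and 47.4 CPM in V2084D libraries, and it fell by 1.56 on the log2 scale (SE 0.131, adjusted p 7.48e-05). DUSP1 had 20.8, 26.5 and 23.2 CPM in V2084D shSTUB1 libraries and 44.9, 40.6 and 31.1 CPM in V2084D libraries, and it fell by 0.73 (SE 0.128, adjusted p 0.00304). Both genes had been higher in V2084D than in WT libraries, and both were below the lowest WT library, at 30.9 CPM for IER3 and 28.8 CPM for DUSP1, in every V2084D shSTUB1 library. IER2 fell by 0.62 (SE 0.0838, adjusted p 7.49e-04), with 33.2, 36.6 and 33.7 CPM in V2084D shSTUB1 libraries and 55.1, 48.1 and 56.1 CPM in V2084D libraries. IER5 fell by 0.66 (SE 0.0999, adjusted p 0.00143), with 27.6, 34.0 and 27.5 CPM in V2084D shSTUB1 libraries and 48.4, 41.5 and 50.4 CPM in V2084D libraries. For both, no library of either group reached the other group's range. DESeq2 called 7 of the 10 genes and 5845 of all 22510 genes tested. Under the other settings and with any 1 library left out, 7 or 8 of the 10 were called. Those fits called 2887 to 5148 of all genes tested. EGR4 gave a value in 9 of the 12 alternatives.

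Set against WT, V2084D shSTUB1 libraries were lower for all 10 genes. This comparison shares its libraries with both comparisons above and is not independent of them. In this comparison 45.1% of all genes tested were called and 21.7% fell. The log2 differences were -4.76 (SE 0.126) for EGR1, -2.63 (SE 0.196) for EGR3, -1.67 (SE 0.0855) for IER2 and -1.30 (SE 0.273) for EGR2. They were -1.12 (SE 0.130) for IER3, -1.10 (SE 0.1005) for IER5, -0.80 (SE 0.0939) for NAB2, -0.38 (SE 0.128) for DUSP1 and -0.19 (SE 0.0722) for SRF. EGR4 had 0 counts in V2084D shSTUB1 libraries and 18 to 34 counts in WT libraries. With each 0 set to 3 counts, the mean of the WT libraries was 9.78 times that level. Single WT libraries ran from 0.276 to 0.578 CPM. The median over the 10 genes was -1.21, against a median of 0.02 over all genes tested. EGR4 lay below that median both as fitted and at its bound, so the choice between them could not move it. No V2084D shSTUB1 library reached the WT range for any of the 10 genes. The share of all genes tested whose groups did not overlap is not given here, so this only describes these libraries. The call of SRF (adjusted p 0.0492) was lost in 10 of 12 alternatives and that of DUSP1 (adjusted p 0.0325) in 6 of 12.

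**Figure D2:**
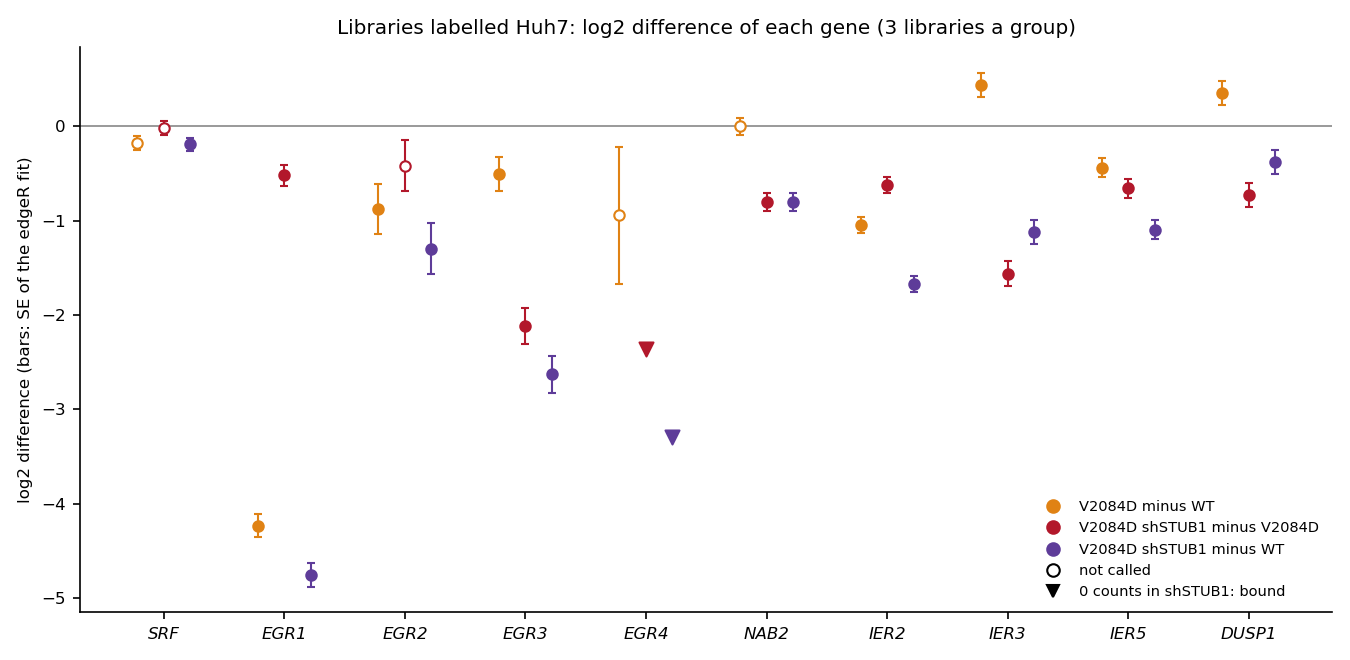
Log2 differences (vertical axis) of the 10 genes in the libraries labelled Huh7, 3 libraries a group, for V2084D minus WT, V2084D shSTUB1 minus V2084D and V2084D shSTUB1 minus WT; bars are the SE of the edgeR fit, open points were not called, and triangles give the bound for EGR4, which had 0 counts in the V2084D shSTUB1 libraries. EGR1 stands at -4.23 for V2084D minus WT and -0.52 for V2084D shSTUB1 minus V2084D. For the same comparisons EGR3 stands at -0.51 and -2.12, and IER3, which rose in the first, at 0.44 and -1.56.

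The wider set of genes around these 10 moved in both directions in V2084D libraries labelled Huh7. Of 50 other immediate early genes 17 rose, 16 fell and 17 were not called, where 22% of all genes tested rose and 20% fell, with a median log2 difference of 0.12 against 0.03 over all genes tested. The 4 with the smallest adjusted p were PPP1R15A, ATF3, JUN and JUNB. JUN, a subunit of the AP-1 transcription factor, rose by 2.44 on the log2 scale (SE 0.137, adjusted p 6.73e-07), with means of 2115 ± 474 CPM in V2084D libraries and 383 ± 17.7 CPM in WT libraries (SD, n = 3 each). ATF3, a stress-induced transcription factor, rose by 3.12 (SE 0.176, adjusted p 6.75e-07), and PPP1R15A, a phosphatase subunit of the stress response, rose by 1.69 (SE 0.0903, adjusted p 5.20e-07). JUNB, another AP-1 subunit, fell by 1.31 (SE 0.0752, adjusted p 7.02e-07). FOS, the AP-1 subunit whose promoter defined the serum response element, was chosen after its values were seen. It averaged 4.23 ± 0.501 CPM in V2084D libraries and 64.3 ± 4.55 CPM in WT libraries (SD, n = 3 each) and fell by 3.95 (SE 0.417, adjusted p 3.28e-05).

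Of 12 ERK feedback and ERK-responsive genes 8 fell and 4 were not called, with a median of -0.60. The share of all genes tested that fell, 20%, and that rose, 22%, is the background for these and the next counts. The ETS factors ETV4, ETV1 and ETV5 fell by 1.68 (SE 0.104), 1.28 (SE 0.137) and 1.66 (SE 0.218), and DUSP6, the cytoplasmic ERK phosphatase, fell by 1.92 (SE 0.233). Of 26 cytoskeletal genes regulated by SRF and its MRTF cofactors, 25 were tested, 13 fell, 3 rose and 9 were not called, with a median of -0.29. The cytoplasmic actins ACTB and ACTG1 fell by 1.72 (SE 0.0565) and 1.59 (SE 0.0566), and cofilin, CFL1, fell by 0.96 (SE 0.0661). Of 21 cofactors and members of the RAS to ERK pathway 7 rose, 1 fell and 13 were not called, with a median of 0.12. The 1 that fell was HRAS, by 0.81 (SE 0.109), while the ERK kinase genes MAPK3 and MAP2K1 rose by 0.60 (SE 0.060) and 0.42 (SE 0.0645).

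With the STUB1 knockdown 30 of the 50 other immediate early genes fell, 2 rose and 18 were not called, where 10.8% of all genes tested fell and 21.5% were called in either direction, with a median of -0.57 against -0.0035 over all genes tested. JUN fell by 1.40 (SE 0.133, adjusted p 1.24e-04), to 805 ± 59.8 CPM in V2084D shSTUB1 libraries, against 2115 ± 474 CPM in V2084D libraries (SD, n = 3 each). JUNB fell by 1.01 (SE 0.0754), ARC, a synaptic immediate early gene, by 1.85 (SE 0.158), and MAFF, a small MAF factor, by 1.62 (SE 0.155). Of the 12 ERK feedback genes 3 fell and 1, ETV4, rose by 0.37 (SE 0.102), with a median of -0.01. Of the 25 cytoskeletal genes 9 fell and 16 were not called, with a median of -0.28. Of the 21 cofactors and pathway genes 4 fell and 17 were not called, with a median of -0.13, and the 4 were RPS6KA1, MAP2K1, ELK4 and ELK1. The SRF partner ELK4 fell by 0.60 (SE 0.130) and ELK1 by 0.22 (SE 0.0679). Against WT, V2084D shSTUB1 libraries had 27 of the 50 other immediate early genes lower and 12 higher, with JUNB at -2.33 (SE 0.0779) and PPP1R15A at 1.50 (SE 0.0899). In the same comparison 10 of 12 ERK feedback genes, 17 of 25 cytoskeletal genes and 6 of 21 cofactors and pathway genes fell, against 21.7% of all genes tested, a share not far from that of the cofactors and pathway genes.

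**Figure D3:**
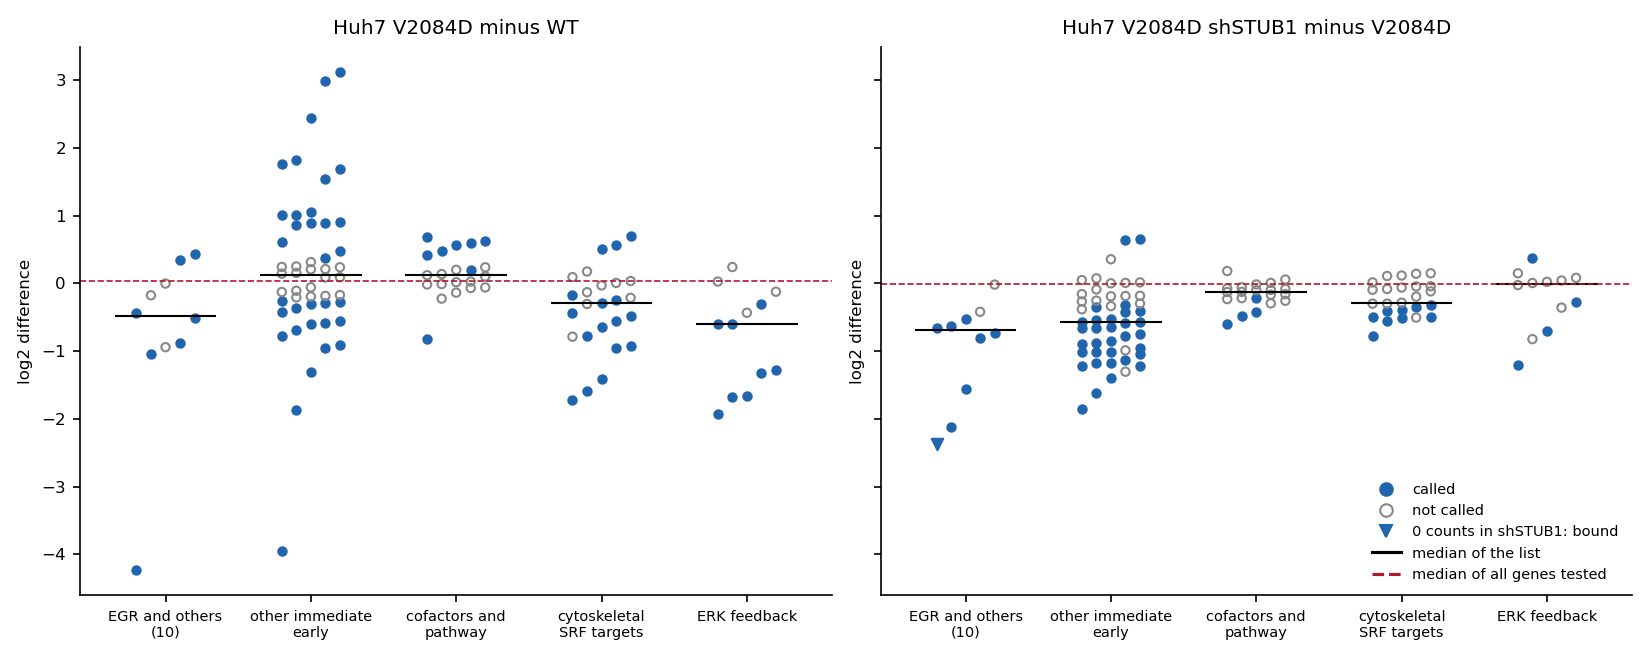
Log2 differences (vertical axis) in the libraries labelled Huh7 of the 10 genes and of 4 further gene lists, for V2084D minus WT on the left and V2084D shSTUB1 minus V2084D on the right; each point is a gene, filled where called, the triangle is the bound for EGR4, black bars are list medians and the dashed line is the median of all genes tested. The other immediate early genes spread on both sides of 0 on the left (median 0.12) and lie mostly below 0 on the right (median -0.57).

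The same V2084D to WT comparison in the libraries labelled 293T gave no call among the 10 genes. Whether the difference itself differed between the labelled lines was tested in a joint fit of all 27 libraries. As given above, none of 15 liver markers averaged 1 CPM over the libraries labelled Huh7. There 7 of 8 HEK293 markers averaged 10 CPM or more. The test therefore compares libraries by label and may not compare different lines. The log2 difference in the libraries labelled Huh7 minus that in the libraries labelled 293T was -4.45 for EGR1 (SE 0.680, adjusted p 1.51e-04) and -0.99 for IER2 (SE 0.292, adjusted p 0.0315). These were the 2 genes called, both lower, where 9.72% of 24546 genes tested were called and 4.21% were lower. The other 8 genes had adjusted p-values from 0.107 upward. EGR1 was called with any 1 library left out. IER2 was lost without 293T WT replicate 3 or V2084D replicate 1, without Huh7 WT replicate 1 or 3, and without any 1 of the Huh7 V2084D replicates.

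Among the libraries labelled 293T, EGR1 had 210, 198 and 94.2 CPM in V2084D, 258, 169 and 76.7 CPM in G2087E and 206, 220 and 63.9 CPM in G2087R. It had 178, 150 and 59.0 CPM in K2025E, 154, 202 and 69.0 CPM in WT and 200.0, 156 and 81.5 CPM in KO. The groups overlapped throughout, and within each of the 6 groups replicate 3 was the lowest, at 59.0 to 94.2 CPM, below the 150 to 258 CPM of replicates 1 and 2. A replicate 3 that is lowest in all 6 groups was seen for 2.26% of the 23201 genes tested. Over the 9 comparisons the EGR1 differences lay between -0.18 and 0.25, each with an SE of 0.52. With the replicate number as a block the SE was 0.178, the differences lay between -0.23 and 0.28, and the smallest adjusted p was 0.407. The labels do not say what the numbers share.

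The remaining comparisons set each group with introduced ARID1A against KO. For G2087R, 2 of the 3 libraries had ARID1A near the KO level, so that comparison does not measure return of the protein's transcript in the group as a whole. None of the 10 genes was called by edgeR or by DESeq2 for V2084D, G2087E, G2087R or WT minus KO. Of the 23201 genes tested edgeR called 0% in each, and DESeq2 called 28 genes for V2084D, 37 for G2087E, 25 for G2087R and 70 for WT. At an unadjusted p below 0.05 there were 2 of the 10 genes for V2084D, 2 for G2087E, 0 for G2087R and 1 for WT. Over all genes tested, the share below that unadjusted p was 4.83% for V2084D, 5.66% for G2087E, 4.31% for G2087R and 11% for WT. None of the 10 was called by either tool for any mutant minus WT. There edgeR called 0% of all genes for V2084D and G2087E and 0.00431% for G2087R and K2025E, while DESeq2 called 14, 16, 26 and 21 genes for V2084D, G2087E, G2087R and K2025E. At an unadjusted p below 0.05 in edgeR there was 1 of the 10 genes for K2025E and 0 for the other 3 mutants. Over all genes tested, that share was 8.27% for K2025E, 2.01% for V2084D, 2.05% for G2087E and 4.45% for G2087R. The common biological coefficient of variation was 30.9% in the libraries labelled 293T and 24.8% in those labelled Huh7, so smaller differences were harder to call in the libraries labelled 293T.

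EGR4 and SRF, and EGR3 in K2025E alone, were the genes below an unadjusted p of 0.05 against KO. EGR4 had 32, 25 and 64 counts in V2084D, 37, 22 and 62 in G2087E, 23, 31 and 45 in K2025E and 28, 52 and 49 in WT, against 6, 5 and 16 counts in KO. No library of these 4 groups reached the KO range. The log2 differences against KO were 2.22 (SE 0.860) for V2084D, 2.23 (SE 0.861) for G2087E, 2.01 (SE 0.860) for K2025E and 2.23 (SE 0.859) for WT. Their adjusted p-values of 0.131 to 0.989 made no call. The libraries labelled G2087R had 0, 4 and 34 counts, with the 34 in replicate 3. Across the 18 libraries labelled 293T, the 5 with ARID1A at 119 to 326 CPM (KO and G2087R replicates 1 and 2) had 0 to 0.278 CPM of EGR4, and the 13 with ARID1A at 5727 to 116300 CPM had 0.601 to 1.39 CPM. This is a description over libraries set apart by their ARID1A level, with no test. SRF had 131, 109 and 177 CPM in V2084D and 144, 124 and 147 CPM in G2087E, against 95.9, 94.1 and 126 CPM in KO, which overlapped. Its differences of 0.40 (SE 0.175) and 0.39 (SE 0.175) were not called (adjusted p 0.989 and 0.857).

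**Figure D4:**
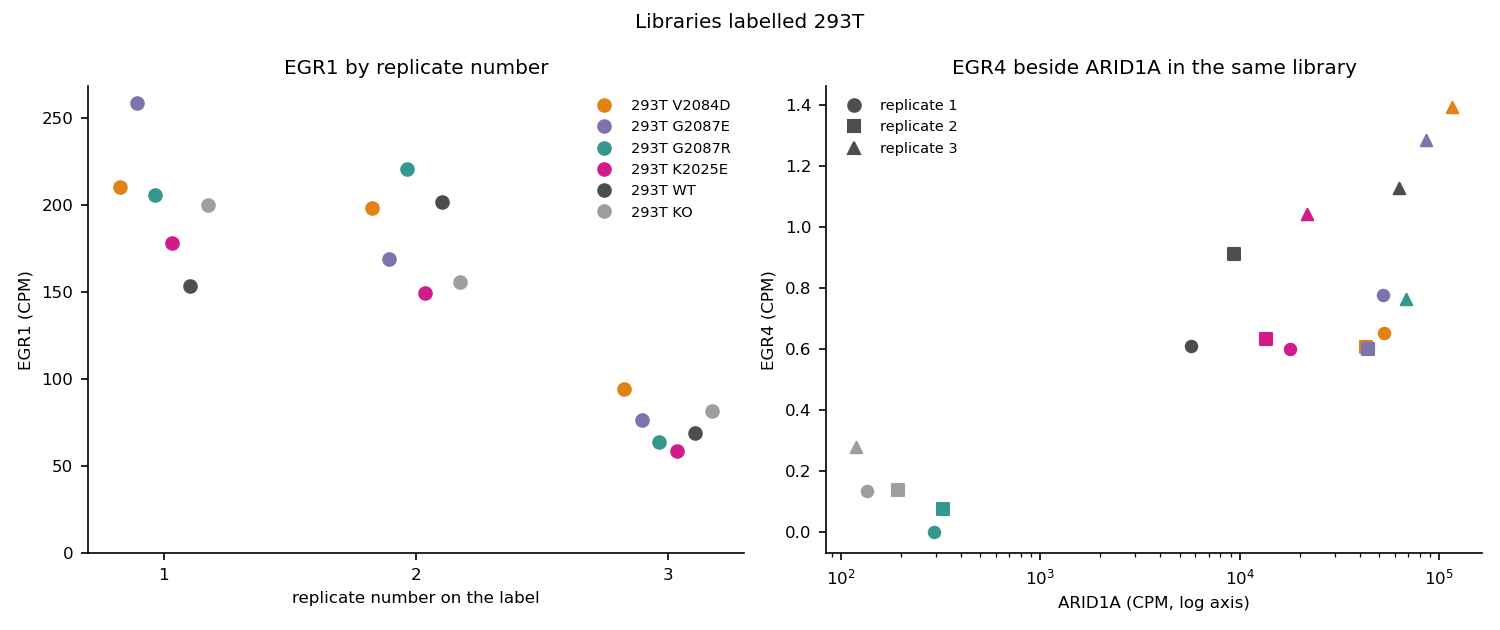
Libraries labelled 293T: on the left EGR1 in CPM by the replicate number on the label, 1 point a library, coloured by group; on the right EGR4 in CPM against ARID1A in CPM on a log axis, 1 point a library in the same colours. Every EGR1 point of replicate 3 is at or below 94.2 CPM and every other point is at or above 150 CPM; the 5 libraries with ARID1A up to 326 CPM have at most 0.278 CPM of EGR4.

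K2025E minus KO was the 1 comparison of the libraries labelled 293T with a call among the 10 genes. EGR3 had 7.55, 3.80 and 2.34 CPM in K2025E, against 10.8, 9.998 and 10.4 CPM in KO. It fell by 1.19 on the log2 scale (SE 0.296, adjusted p 0.016), where 12.9% of all genes tested were called and 5.72% fell. The lower values were those of replicates 2 and 3, the libraries that stood apart on the first principal component. The call was lost without K2025E replicate 2, without K2025E replicate 3, without KO replicate 1, and in a fit of the compared groups alone, and with K2025E replicates 2 and 3 both left out the difference was -0.47. Against WT, at 8.82, 13.1 and 7.61 CPM, EGR3 differed by -1.12 (SE 0.296) and was not called (adjusted p 0.601). In G2087R, EGR3 had 6.94, 7.88 and 8.02 CPM, below the KO libraries and not called.

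The genes whose pattern was most like EGR1 were taken by the lower of its Pearson correlations of log2 CPM over the 18 libraries labelled 293T and over the 9 labelled Huh7, among 13755 genes. MYC, a growth-regulating transcription factor and itself an immediate early gene, led with 0.904 and 0.973. LDOC1 followed with 0.893 and 0.884, GTF3C2 with 0.875 and 0.941, NAA40 with 0.861 and 0.939 and UBE2G2 with 0.86 and 0.988. The libraries share their replicate numbers in the first set and the gap between WT and the other groups in the second, so these values are a description. The size of the change was not alike: in V2084D libraries labelled Huh7, MYC differed from WT by -0.59 (SE 0.0619), LDOC1 by -0.50 (SE 0.102), GTF3C2 by -0.45 (SE 0.0822), NAA40 by -0.51 (SE 0.0595) and UBE2G2 by -0.34 (SE 0.0554), against -4.23 for EGR1. Of the other 9 genes 7 passed the limit on expression for this measure, EGR2 and EGR4 not. Of the 7, IER2 was the most like EGR1, with 0.523 over the libraries labelled 293T and 0.954 over those labelled Huh7, and IER3 was the least like it, with -0.339 and 0.327.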

How the data were processed

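The authors deposited 2 tables of raw read counts per gene, 1 for 18 libraries labelled 293T and 1 for 9 labelled Huh7. Per the labels' protocols, Trizol and a column kit gave total RNA, and a NEBNext Ultra II kit gave the libraries. The build GRCh38 and edgeR are named in the submitters' processing notes, and the aligner, counting tool, annotation and strand setting are not given in the sources used here. Every value was a whole number, and each column matched a sample by its title.

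Counts were tested with the quasi-likelihood F test of edgeR 4.0.16 in R 4.3.3 after TMM scaling. Each table had 1 fit over its groups, and the difference between lines had 1 fit over both tables. Genes were kept with filterByExpr at a minimum count of 10 and a minimum total of 15, which left 23201, 22510 and 24546 genes, among them all 10 members in each fit. The common biological coefficient of variation was 30.9%, 24.8% and 30.3%. SE was obtained as the size of a log2 difference over the root of its F value. Replicate pairs differed with 11.7 to 345 times the variance that counting gives, pooled over all genes. The pooling kept ARID1A, whose counts differed widely within some groups, with 15336, 17322 and 3047603 in G2087R. Its part in the upper values was not separated out. Log2 CPM used a prior count of 2, and exon lengths came from GENCODE 29. Figures were drawn from the tabulated values.

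The members and the lists (50 other immediate early genes, 26 cytoskeletal SRF targets, 12 ERK feedback genes, 21 cofactors and pathway genes, and marker lists of 15 liver and 8 HEK293 genes) were chosen with earlier results of these data known. Named beside the members are ARID1A, STUB1, up to 4 genes a list and comparison with the smallest adjusted p, the line markers, and the 5 genes most like EGR1 with a mean log2 CPM of at least 1 in each table; FOS falls outside this rule. The pipeline was tested on simulated data. Replicate numbers were taken as pairs where the deviations of same-numbered libraries from their group means correlated above 0.1 in all 3 pairs. That held for G2087R minus WT alone (0.129, 0.171 and 0.306), from the data and not the labels. Alternatives were DESeq2 1.42.0, RLE scaling, the filter dropped or set to 1 CPM in 3 libraries, a block for the replicate number, the compared groups fitted alone, fits without G2087R replicates 1 and 2 or K2025E replicates 2 and 3, and each library left out in turn.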

Additional observations from a re-analysis of the deposited data

Results flagged for a closer look

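For EGR1 the V2084D minus WT difference was tested against itself across the lines, and it differed: in the libraries labelled Huh7 minus those labelled 293T it was -4.45 on the log2 scale (SE 0.680, adjusted p 1.51e-04 in the joint edgeR fit), where the separate fits gave -4.23 for Huh7 and 0.24 for 293T. EGR1 was lower in 3 of 3 V2084D libraries labelled Huh7 than in any WT library. In the libraries labelled 293T the groups overlapped. IER2 was flagged by the same test, with -0.99 (SE 0.292, adjusted p 0.0315), and its adjusted p ran from 0.00759 to 0.0883 over 20 alternatives. Labelled line, table, ARID1A level and depth differ together here and cannot be told apart. The libraries labelled Huh7 had 0 of 15 liver markers at a mean of 1 CPM and 7 of 8 HEK293 markers at 10 CPM or more, so it is not shown that the 2 sets are different lines.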

How the results depend on the processing

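The 41 differences of single genes followed under the alternatives gave 520 values, of which 458 kept their direction and side of the threshold, 52 kept the direction and lost the call, 4 gained a call and 6 changed sign. The reversals were of differences that were not called and were smaller than their SE. NAB2, V2084D minus WT in the libraries labelled Huh7, was 0.0102 without the filter and -0.0637 to 0.0849 with 1 library left out. SRF, V2084D shSTUB1 minus V2084D, was -0.0651 to 0.0237 and EGR1, V2084D minus WT in the libraries labelled 293T, was -0.0898 to 0.585 with 1 library left out.

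The number of the 10 genes called stayed within 1.5 times the reported one except as follows. For V2084D minus WT in the libraries labelled Huh7 it was 4 without the filter and 4 to 5 with 1 library left out, against 7. For K2025E minus KO it was 0 with the compared groups alone, 0 without K2025E replicates 2 and 3, 2 without G2087R replicates 1 and 2, where EGR4 joined EGR3, and 0 to 1 with 1 library left out, against 1. For K2025E minus WT it was 0 to 1 with 1 library left out, against 0. For the difference between lines it was 1 without the filter and 1 to 3 with 1 library left out, against 2. The causes were not tested. Counts for all genes tested moved as well: K2025E minus KO called 2989 genes, and 436 with the compared groups alone. V2084D minus WT in the libraries labelled Huh7 called 9443 of 22510 genes and 8555 of 37826 without the filter. With 1 library left out it called 8030 to 8675 genes.

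With the replicate number as a block, 5 of the 10 genes were called for V2084D minus WT in the libraries labelled Huh7, 8 for V2084D shSTUB1 minus V2084D, 9 for V2084D shSTUB1 minus WT, 1 for K2025E minus KO, 2 for the difference between lines and 0 for the others. Over all genes tested, in the same order, the block called 8750, 3992 and 9411 of 22510, 3605 of 23201 and 2605 of 24546. For each of the others the block called at most 2 genes. It changed no call of the 10 genes for G2087R minus WT, the 1 comparison whose numbers paired. For EGR4, 6 of the values could not be had, where DESeq2 gave no adjusted p or a filter removed the gene. EGR4 had the fewest counts of the 10 genes, 0 to 64 a library, and depth limits it most.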
